A study of Homo sapiens with 6 samples.

Results

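The 40 genes described here encode nucleolar factors that transcribe ribosomal RNA, modify and process it, and assemble it into ribosomal subunits. They were taken by symbol from the gene column of the authors' deposited comparison table, where all 40 were found among its 13008 genes, and all 40 passed the filter on low values among the 13153 genes tested. Ribosome biogenesis starts in the nucleolus, where RNA polymerase I copies the ribosomal DNA into a precursor that small nucleolar ribonucleoproteins (snoRNPs) methylate and pseudouridylate. The small subunit processome and a series of large subunit intermediates then fold, cut and export the RNA with its ribosomal proteins. In dividing cells this is a main consumer of transcription, and many of its genes are known targets of MYC.

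Polyadenylated RNA came from hTERT-RPE1, a human retinal pigment epithelial line immortalised with telomerase, that carries FLAG-FOXM1c, a tagged isoform of a forkhead transcription factor, behind a tetracycline-inducible promoter. The dox group (3 libraries, labelled as FOXM1 overexpression) was kept for 48 h in 1 µg/mL doxycycline, renewed every 24 h, and the no dox group (3 libraries, labelled WT) had the same line name and no treatment. Both groups bear that single line name, and doxycycline on cells without the transgene was not analysed here, so the drug and the induced factor cannot be told apart. Separate cultures are not stated, so p-values here reflect sample-to-sample spread that may be technical.

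FOXM1 itself ran from 65289 to 74976 normalised counts (reads per gene as normalised by the authors) in dox, against 4292 to 5009 in no dox libraries. Recovered library totals were 41719959, 49882123 and 25148936 reads in dox libraries 1, 2 and 3, against 31307141, 32280300 and 15094498 in no dox libraries 1, 2 and 3. At each replicate number the dox library was thus the deeper one, and the part of depth in the results was not tested. Between 131 and 48136 reads stood behind each value of the 40 genes. Summed FPKM of the epithelial list was 68.0 to 98.7 in dox and 54.6 to 77.6 in no dox libraries. Nearly all of it came from the keratin genes KRT8 (mean 30.8 in dox, 24.7 in no dox libraries) and KRT18 (55.4 and 43.3), both higher in dox in each pair, and EPCAM was listed at 0 throughout. The other 3 of its 5 genes were not in the normalised table, and the part of this difference in the results was not tested. The mesenchymal list summed to 431 to 530 FPKM in dox and 443 to 543 in no dox libraries, with VIM at a mean of 311 in dox against 337 in no dox, and FN1 at 83.8 against 76.9. The pigment epithelium list summed to 4.43 to 5.58 and 4.62 to 5.67 FPKM in dox and no dox libraries in that order, mostly MITF and OTX2, with its defining marker RPE65 near 0 and absent from the normalised table. Deviations from the group means correlated between libraries of equal replicate number (0.745, 0.726 and 0.768 across genes, which are not independent), so each pair of equal number was also compared within itself, as a replicate block.

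Nucleolar genes sat slightly higher with doxycycline, by less than the range over no dox libraries for most of them. Part of that range was shared by libraries of equal replicate number. The median standard error of the 40 changes was 0.11 without the block and 0.054 with it. The log2 change was above 0 for 33 of 40 genes (82.5%), against 49.4% of all tested genes, and its median was 0.11 (SD over the pairs 0.04), a 1.08-fold difference, against -0.0022 over all tested genes. Without the block no gene of the 40 passed the limma test (0 called, where 0.540% of all tested genes were called, 0.319% higher and 0.220% lower). HEATR1, NOB1 and DDX10 had an unadjusted p under 0.05, or 3 of 40 where 13.0% of all tested genes did, and DESeq2 on recovered reads called 0, where it called 3.98% of its genes (1.67% higher and 2.32% lower). edgeR called 0 too, with 0.515% of its genes called, 0.323% higher and 0.192% lower. The authors' deposited table likewise gave 0 of the 40 an adjusted p under 0.05 (2.78% of its genes had one, 1.25% higher and 1.52% lower), the lowest being 0.152 for HEATR1.

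With the replicate block 11 of the 40 rose and 0 fell, where 10.2% of all tested genes were called higher and 12.4% lower. The 11 were RRS1, RRP12, HEATR1, NOB1, DDX10, UTP20, WDR12, NHP2, NOP2, POLR1A and DDX21, and edgeR with the block called the same 11 (its background was 11.4% higher and 12.1% lower). As to direction, 24 genes were higher in each of the 3 pairs (where 26.5% of all tested genes were) and 1 gene, BRIX1, was lower in each (28.5% of all tested genes were). HEATR1, NOB1, RRP12 and RRS1 were called with the block whichever replicate number was left out, with 12 genes of the 40 called higher without replicate 1, 4 without replicate 2 and 6 without replicate 3. Of all tested genes 13.4%, 4.44% and 5.87% were called higher in those fits. The other 7 of the 11 lost the call in at least 1 of them. Fits with a replicate number left out rest on fewer libraries than the full block fit. As this is bulk RNA, more cells of a given state and more RNA per cell cannot be told apart.

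**Figure D1:**
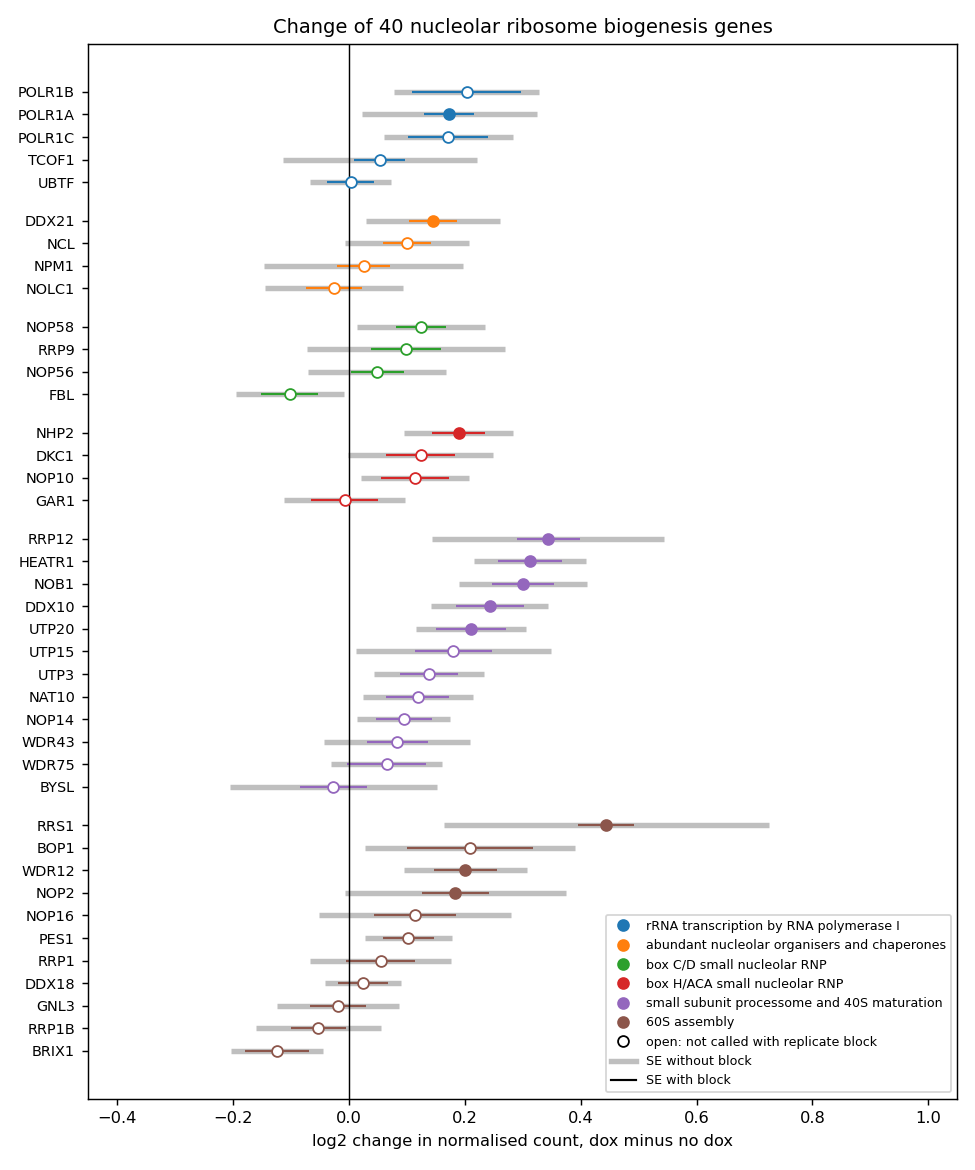
Log2 change in normalised count (dox minus no dox) of the 40 genes, grouped by role; filled points were called with the replicate block, grey bars show the standard error without the block and coloured bars that with it. Points run from -0.12 (BRIX1) to 0.44 (RRS1), and the 11 filled points all lie right of 0.

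**Figure D2:**
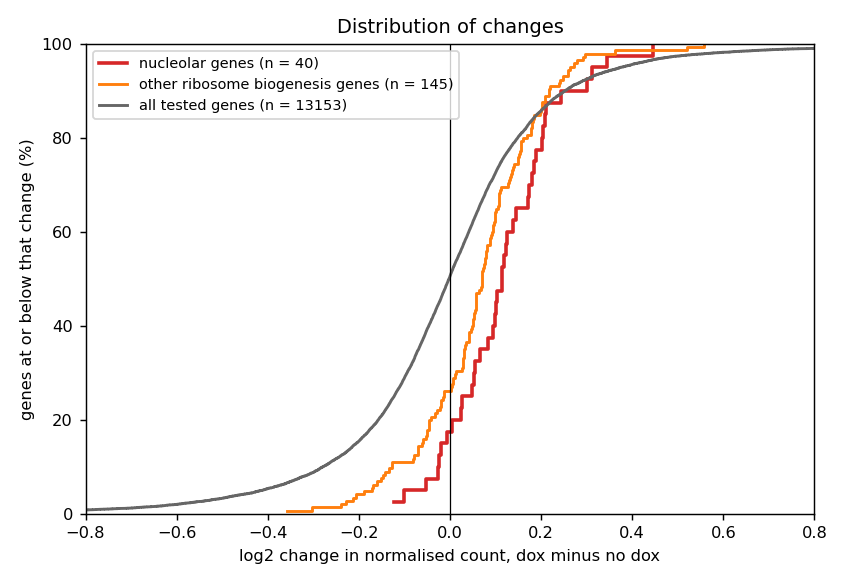
Cumulative share of genes (percent) at or below each log2 change (dox minus no dox) for the 40 nucleolar genes, 145 other ribosome biogenesis genes and all 13153 tested genes. The nucleolar curve has 7 of 40 changes left of 0 and lies to the right of the curve of all genes over most of its range.

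Genes of ribosomal RNA transcription were all above 0 (5 of 5, against 49.4% of all tested genes, median log2 change 0.17). With the block 1 passed (20%, where 10.2% of all tested genes were called higher). POLR1B, the second-largest subunit of RNA polymerase I, had 1292, 987 and 999 normalised counts in dox libraries 1, 2 and 3, against 895, 898 and 1038 in no dox libraries 1, 2 and 3. Only dox replicate 1 stood above all no dox libraries, and pair 3 went the other way. Its log2 difference was 0.20 (SE 0.12, limma adjusted p = 0.576, and 0.152 with the block). POLR1A, the catalytic largest subunit, had 3081, 2387 and 2235 in dox and 2679.6, 2155 and 1983 in no dox libraries in the same order. Each dox library lay above its no dox partner by 0.20, 0.15 and 0.17 on the log2 scale, and the gene rose with the block (adjusted p = 0.0174, against 0.726 without it). The block call was lost without replicate 2 (adjusted p = 0.104) and without replicate 3 (adjusted p = 0.0900), and without the block the difference was 0.04 without dox replicate 1. POLR1C, which RNA polymerases I and III share, had a change of 0.17 and adjusted p-values of 0.606 without and 0.103 with the block. TCOF1, the nucleolar protein treacle that is mutated in Treacher Collins syndrome, had a log2 difference of 0.05, and UBTF, the HMG-box factor that occupies active ribosomal DNA, one of 0.0034. UBTF averaged 3521 ± 138 normalised counts with doxycycline and 3512 ± 108 without it (SD, n = 3 each).

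The genes of abundant nucleolar proteins differed little. DDX21, an RNA helicase that acts in ribosomal RNA transcription and processing, had 9172, 7663 and 7147 normalised counts in dox libraries 1, 2 and 3, against 7933, 7112 and 6577 in no dox libraries 1, 2 and 3. The groups overlap, while each pair was higher in dox. Its change was 0.15 (SE 0.12, limma adjusted p = 0.692), and it passed with the block (SE 0.04, adjusted p = 0.0318). That call was lost without replicate 2 (adjusted p = 0.129) and without replicate 3 (adjusted p = 0.115), and without the block the difference was 0.04 without dox replicate 1. NCL, or nucleolin, averaged 20417 ± 1639 with doxycycline and 19054 ± 1695 without it (SD, n = 3 each) and did not pass in either fit (limma adjusted p = 0.791, and 0.113 with the block). NPM1, or nucleophosmin, averaged 29253 ± 5784 with doxycycline and 28631 ± 4709 without it (SD, n = 3 each). Its values followed the replicate number instead, with 25127, 26768 and 35865 in dox libraries 1, 2 and 3, against 24601, 27484 and 33807 in no dox libraries 1, 2 and 3. NOLC1, a chaperone of snoRNPs also known as Nopp140, had a log2 difference of -0.02 (adjusted p = 0.748 with the block).

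Among the 8 genes of snoRNP proteins 1 passed with the block, a share near the 10.2% of all tested genes called higher. Box C/D particles place 2′-O-methyl groups and box H/ACA particles make pseudouridine, and the proteins of the second class are also part of telomerase. NHP2, of the H/ACA class, had 1883, 1722 and 2066 normalised counts in dox libraries 1, 2 and 3, against 1695, 1525 and 1747 in no dox libraries 1, 2 and 3. Dox replicate 2 lay below no dox replicate 3, so the groups overlap, and all pairs were higher in dox. NHP2 had a log2 difference of 0.19 (SE 0.09, limma adjusted p = 0.458) and rose with the block (SE 0.05, adjusted p = 0.0165), but not without replicate 2 (adjusted p = 0.105) or replicate 3 (adjusted p = 0.127). Without the block the difference was 0.12 without dox replicate 3. The other H/ACA genes gave 0.12 for DKC1, the pseudouridine synthase, 0.11 for NOP10 and -0.0067 for GAR1, the last being on either side of 0 depending on the scaling. None of these 3 passed in either fit.

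Of the box C/D genes NOP58, a core scaffold protein, had the largest change. It had 2326, 1935 and 1964 normalised counts in dox libraries 1, 2 and 3, against 2149, 1760.0 and 1803 in no dox libraries 1, 2 and 3. The pairs were higher by 0.11, 0.14 and 0.12, the most even of the 4, and the change of 0.12 (SE 0.11, limma adjusted p = 0.731) missed the threshold with the block as well (adjusted p = 0.0678). Its partner NOP56 had a log2 difference of 0.05 and RRP9, the protein specific to the U3 particle, one of 0.10. FBL, the methyltransferase fibrillarin, averaged 3513 ± 336 with doxycycline and 3761 ± 216 without it (SD, n = 3 each), with a change of -0.10 that did not pass (adjusted p = 0.175 with the block).

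The small subunit genes, the largest role group, held the most calls. With the block 5 of 12 rose (41.7%, where 10.2% of all tested genes were called higher). Changes of 11 of 12 were above 0 (median 0.16), against 49.4% of all tested genes. RRP12, which accompanies pre-ribosomal subunits to the cytoplasm, had 2764, 1713 and 1809 normalised counts in dox libraries 1, 2 and 3, against 1984, 1445 and 1460.4 in no dox libraries 1, 2 and 3. Replicate 1 was high in both groups, so that no dox replicate 1 exceeded dox replicates 2 and 3, while the pairs differed by 0.48, 0.25 and 0.31. The change was 0.34 (SE 0.20, limma adjusted p = 0.547), with an adjusted p of 0.00208 with the block (SE 0.05), and without the block it ran from 0.13 without dox replicate 1 to 0.49 without no dox replicate 1. HEATR1, or UTP10, a scaffold of the processome that also acts in ribosomal RNA transcription, had 2302, 1828 and 2031 in dox against 1713, 1616 and 1612 in no dox libraries in the same order. All dox libraries lay above all no dox libraries, and the change was 0.31 (SE 0.10, limma adjusted p = 0.212, and 0.00377 with the block).

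NOB1, the endonuclease that makes the last cut at the end of the small subunit RNA, had 1215, 1242 and 1444 normalised counts in dox libraries 1, 2 and 3, against 935, 1066 and 1171 in no dox libraries 1, 2 and 3. The groups do not overlap, and replicate 3 was the highest of its group in both. NOB1 had a log2 difference of 0.30 (SE 0.11, limma adjusted p = 0.305, and 0.00381 with the block). DDX10, a helicase of the processome, had 954, 791 and 813 in dox and 760.4, 676 and 719.8 in no dox libraries, a change of 0.24 (SE 0.10, adjusted p = 0.362, and 0.0158 with the block). UTP20, a large scaffold protein of the processome, had 1531, 1305 and 1242 in dox and 1182, 1185 and 1141 in no dox libraries, a change of 0.21 (SE 0.09, adjusted p = 0.403, and 0.0325 with the block). Both were thus without overlap too. With the block, leaving out replicate 2 ended the call of DDX10 (adjusted p = 0.0919), and leaving out any replicate number ended that of UTP20 (adjusted p = 0.0739, 0.0843 and 0.0513 without replicates 1, 2 and 3). Without the block and without dox replicate 1 the change was 0.16 for DDX10 and 0.12 for UTP20. Groups without overlap were found for 5 of the 40 genes, where 19.1% of all tested genes had them, and in 4 of these the dox libraries were the higher ones (9.03% of all tested genes).

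The other small subunit genes did not pass. UTP15, WDR43 and WDR75, which form a module of the processome with HEATR1, had log2 differences of 0.18, 0.08 and 0.07, with adjusted p-values of 0.0782, 0.290 and 0.529 with the block. UTP3 had a log2 difference of 0.14, the RNA acetyltransferase NAT10 one of 0.12 and NOP14 one of 0.10. BYSL, or bystin, averaged 776 ± 170.2 with doxycycline and 786 ± 144 without it (SD, n = 3 each), with replicate 1 the highest of both groups.

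**Figure D3:**
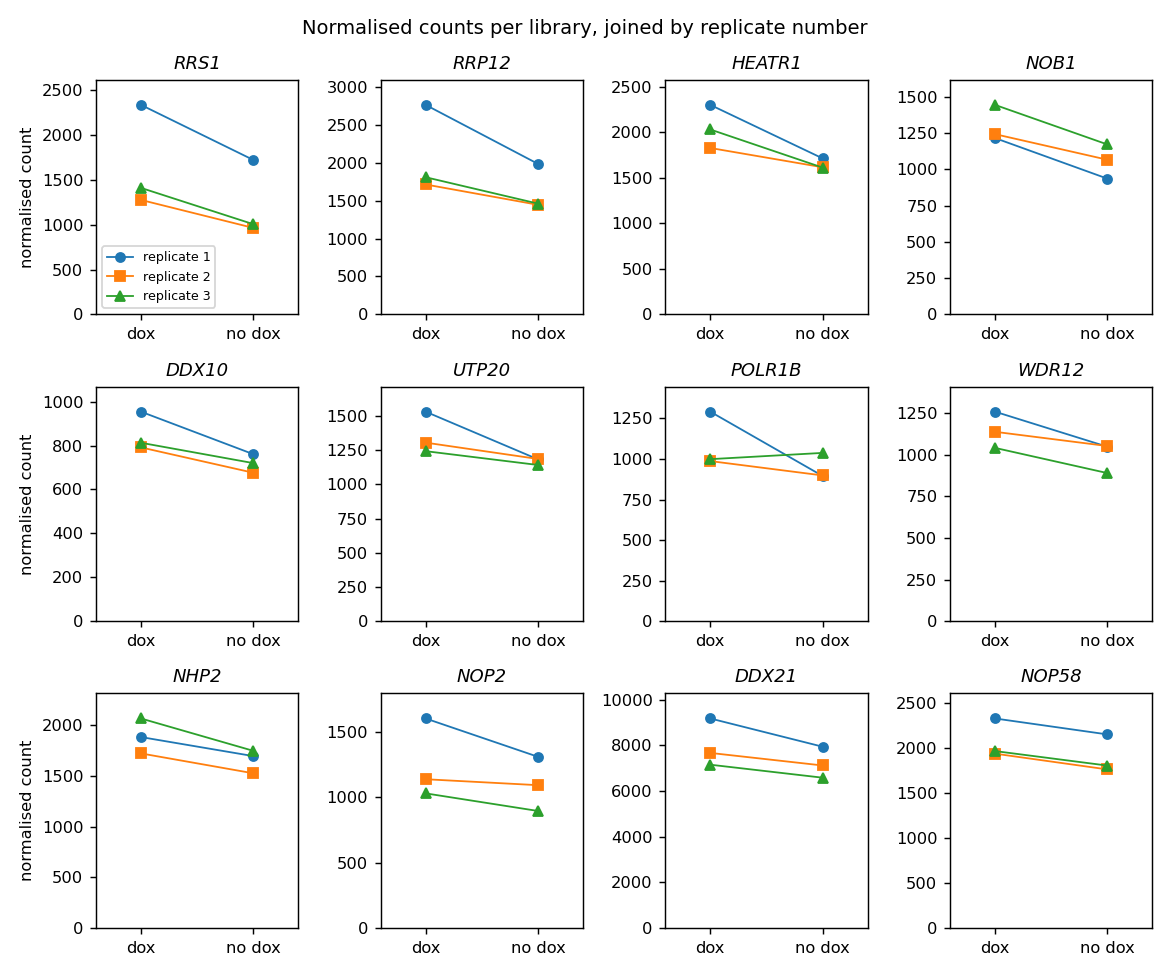
Normalised counts per library (vertical axis from 0) in dox and no dox cells for 12 genes, with lines joining libraries of equal replicate number. Replicate 1 lies highest in both groups for 7 genes (RRS1, RRP12, HEATR1, DDX10, NOP2, DDX21 and NOP58), and all lines but that of POLR1B replicate 3 are higher at dox.

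Start site windows of the members were searched for short motifs, since 11 members were called higher with the block. RefSeq windows (GRCh38.p14, 250 bases before to 50 after a start site) were found for 32 of the 40 genes, 9 of them among the 11. Both strands were searched for CACGTG (the E-box that MYC can bind), TAAACA (a forkhead core), TTTGAA (the cell cycle element CHR) and CCAAT, and matches to different motifs may share bases. CACGTG was in at least 1 window of 13 of the 32 genes (40.6%), against 12.5% of the 9342 tested genes with a window, and each of the 13 had a match within 35 bases of a start site. By window the shares were 34.2% of 38 member windows, 9.19% of the 13769 windows of tested genes and 7.26% of all 35116 windows. It was found in 3 of the 9 genes that rose (DDX21, NOP2 and UTP20) and in 10 of the other 23.

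TTTGAA was in windows of 5 of the 32 genes (15.6%, against 13.8% of tested genes), DDX10, DDX21, NOB1, POLR1A and WDR12. These are 5 of the 9 genes that rose and 0 of the other 23. This split was 1 of several looked at, was seen after the calls were known, and was not tested. The shares with TTTGAA among all tested genes called and not called with the block were not computed. Of these 5 genes only NOB1 kept the call whichever replicate number was left out. TTTGAA lies 218 bases before a start site in WDR12, 210 and 106 in POLR1A, and 109 in DDX21. In DDX21 it lies in the window of another start site than the one shown. TAAACA was in the windows of 1 gene, NOP14 (3.12%, against 10.1% of tested genes), and CCAAT in those of 12 (37.5%, against 43.5%). The 250 bases before the start site are shown for 4 genes that rose, to place the matches, with capitals marking CACGTG in DDX21 (chr10:68956397-68956646, plus strand) and UTP20 (chr12:101279855-101280104, plus strand), and TTCAAA, the reverse complement of TTTGAA, in NOB1 (chr16:69754927-69755176, minus strand) and DDX10 (chr11:108664819-108665068, plus strand). All are written 5′ to 3′ on the strand of the gene, and those of DDX21 and UTP20 have their E-box 31 and 10 bases before the start, while the matches in NOB1 and DDX10 lie 249 and 47 bases before it.
DDX21: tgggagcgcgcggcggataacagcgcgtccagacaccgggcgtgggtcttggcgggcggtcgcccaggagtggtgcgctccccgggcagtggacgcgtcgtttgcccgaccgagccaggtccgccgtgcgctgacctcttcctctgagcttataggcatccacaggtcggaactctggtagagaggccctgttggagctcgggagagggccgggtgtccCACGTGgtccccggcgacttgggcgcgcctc
UTP20: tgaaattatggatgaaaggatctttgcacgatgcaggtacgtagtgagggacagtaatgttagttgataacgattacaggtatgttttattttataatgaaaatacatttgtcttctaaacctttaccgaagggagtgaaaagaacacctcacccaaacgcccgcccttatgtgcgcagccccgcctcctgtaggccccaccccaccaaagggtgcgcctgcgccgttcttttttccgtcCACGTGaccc
NOB1: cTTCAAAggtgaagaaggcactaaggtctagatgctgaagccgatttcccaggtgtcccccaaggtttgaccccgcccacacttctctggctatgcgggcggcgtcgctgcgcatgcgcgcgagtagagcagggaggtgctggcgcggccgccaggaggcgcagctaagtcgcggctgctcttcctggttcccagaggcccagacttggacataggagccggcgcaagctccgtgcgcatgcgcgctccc
DDX10: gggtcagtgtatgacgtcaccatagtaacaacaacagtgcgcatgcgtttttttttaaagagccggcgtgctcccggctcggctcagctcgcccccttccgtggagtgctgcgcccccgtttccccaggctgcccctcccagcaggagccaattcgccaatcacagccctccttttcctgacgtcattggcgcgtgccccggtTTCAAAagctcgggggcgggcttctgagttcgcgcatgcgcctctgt

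Large subunit genes were mixed, with 8 of 11 above 0 (median 0.10), against 49.4% of all tested genes. With the block 3 rose (27.3%, where 10.2% of all tested genes were called higher). Only RRS1 of these kept the call whichever replicate number was left out. RRS1, a regulator of large subunit assembly known from yeast to help load the small RNA of the large subunit, had the largest change of the 40. It had 2339, 1278 and 1412 normalised counts in dox libraries 1, 2 and 3, against 1724, 965 and 1006 in no dox libraries 1, 2 and 3. No dox replicate 1 exceeded dox replicates 2 and 3, yet the pairs differed by 0.44, 0.41 and 0.49. The change was 0.44 (SE 0.28, a 1.36-fold difference, limma adjusted p = 0.595), and with the block it had an SE of 0.05 and an adjusted p of 0.000297. Without the block it ran from 0.18 without dox replicate 1 to 0.71 without no dox replicate 1.

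PES1, BOP1 and WDR12 form the PeBoW complex, which is needed to process the large subunit RNA. WDR12 had 1260.2, 1139 and 1042 normalised counts in dox libraries 1, 2 and 3, against 1049, 1053 and 891 in no dox libraries 1, 2 and 3. Dox replicate 3 lay below the higher no dox libraries, and each pair was higher in dox. WDR12 had a log2 difference of 0.20 (SE 0.11, limma adjusted p = 0.487) and rose with the block (SE 0.05, adjusted p = 0.0255), but not without replicate 2 (adjusted p = 0.0693) or replicate 3 (adjusted p = 0.122). Without the block the difference was 0.12 without no dox replicate 3. BOP1 had a log2 difference of 0.21, almost all of it from pair 3 (0.56, against 0.03 in each of pairs 1 and 2), and did not pass with the block (adjusted p = 0.200). PES1 had a log2 difference of 0.10 (adjusted p = 0.121 with the block).

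NOP2, a methyltransferase of the large subunit RNA, had 1605, 1139 and 1031 normalised counts in dox libraries 1, 2 and 3, against 1311, 1094 and 896 in no dox libraries 1, 2 and 3. Replicate 1 was the highest and replicate 3 the lowest in both groups. The change of 0.18 (SE 0.19, limma adjusted p = 0.784) passed narrowly with the block (adjusted p = 0.0471) and did not when any replicate number was left out (adjusted p from 0.0640 to 0.166). Without the block it was -0.0044 without dox replicate 1. NOP16 had a log2 difference of 0.11, RRP1 one of 0.06 and the helicase gene DDX18 one of 0.02. BRIX1 averaged 742 ± 20.9 with doxycycline and 809 ± 35.8 without it (SD, n = 3 each), with groups that do not overlap and a change of -0.12 that missed the threshold (limma adjusted p = 0.601, and 0.144 with the block). RRP1B, a paralogue of RRP1 (both on chromosome 21), and GNL3, the GTPase nucleostemin, had log2 differences of -0.05 and -0.02.

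Variation between replicates was shared across the set. Replicate 1 was the highest of the 3 in both groups for 25 of 40 genes (62.5%, against 27.2% of all tested genes). For 34 of the 40 the range over no dox libraries exceeded the size of the change with doxycycline. The share of all tested genes with such a range was not computed. The median range of the 40 was 0.26 on the log2 scale, against 0.27 over all tested genes. The median change of the 40 was 0.13, 0.05 and 0.12 in pairs 1, 2 and 3, with 35, 30 and 31 genes higher in dox. Without the block this median change depended on single libraries, being 0.04 without dox replicate 1, 0.06 without no dox replicate 3 and 0.17 without dox replicate 2. Dox replicate 1 was thus the library whose removal lowered it most.

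**Figure D4:**
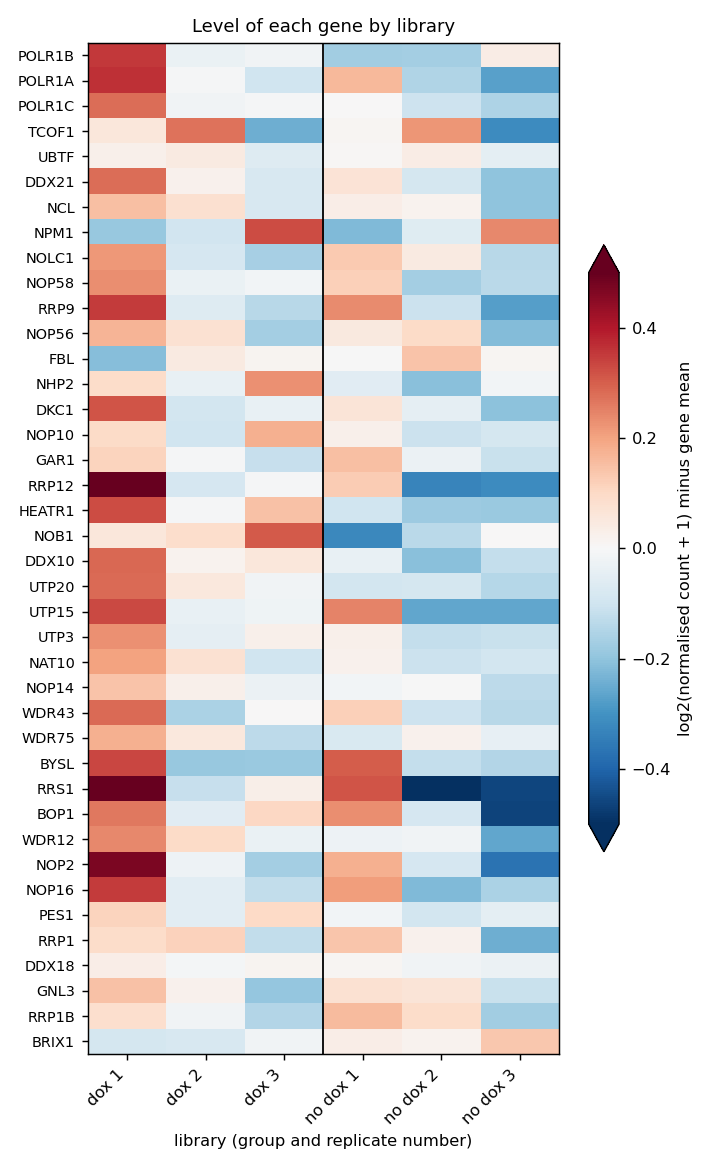
Log2(normalised count + 1) of the 40 genes in each library minus the gene's mean over the 6 libraries, with dox libraries left of the line and genes grouped by role as in the plot of changes. Dox replicate 1 is the reddest column, being the highest dox library for 31 of 40 genes, and no dox replicate 3 is the lowest no dox library for 23 of 40.

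Levels spread widely within the set. Per kilobase of the longest protein-coding GENCODE 29 transcript, which was available for 39 of the 40 genes, NPM1 was the most abundant with a mean of 16640 normalised counts in dox libraries, against 16286 in no dox ones. NCL followed with 5061 and 4723, FBL with 3029 and 3242, and NOP10 with 2563 and 2362, in dox and no dox libraries in that order. UTP15 was the lowest with 118 in dox and 105 in no dox libraries, and DDX10 had 127 and 107. The genes that rose with the block had a median of 362 per kilobase in no dox libraries, against 568 for the others. The deposited FPKM values were not used to rank genes, since the authors' gene width was 3.44 times that transcript in the median and up to 10.9 times for TCOF1. Other genes of the authors' table overlap 11 of the 40 on the genome, among them HEATR1 (by LGALS8), NHP2 (by RMND5B), WDR12 (by CARF) and RRS1 (by ADHFE1). BRIX1 overlaps RAD1, which fell with the block (-0.40, adjusted p = 0.00173). NOP16 overlaps HIGD2A, which rose with the block (0.25, adjusted p = 0.0182). ADHFE1 had at most 71 reads in a library, where RRS1 had 503 to 3332. ADHFE1 lies on the same strand as RRS1, and the other overlapping genes lie on the strand opposite to the member. Strand use in the counting is not stated in the labels or notes. How reads in the overlapped stretches were assigned is therefore not known. NPM1 has processed copies elsewhere in the genome, and the treatment of reads shared with them is not stated either, so its counts are uncertain to that extent.

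Of 145 further ribosome biogenesis genes in 7 lists, 107 were above 0 (median 0.07). Without the block 2 passed, both higher, where 0.319% of all tested genes were called higher. WDR74, a large subunit assembly factor, had 752, 835 and 768 normalised counts in dox libraries 1, 2 and 3, against 549, 548 and 542 in no dox libraries 1, 2 and 3, a change of 0.52 (SE 0.08, limma adjusted p = 0.0482). SNHG8, a noncoding host of small nucleolar RNA, had 2064, 1727 and 1767 in dox and 1259, 1277 and 1229 in no dox libraries, a change of 0.56 (SE 0.09, limma adjusted p = 0.0481). All dox libraries exceeded all no dox libraries for both genes, and neither passed when any 1 of the 6 libraries was left out (limma adjusted p from 0.0710 to 0.183 for SNHG8 and from 0.0726 to 0.198 for WDR74).

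With the block 25 of the 145 rose (17.2%) and 8 fell (5.52%), where 10.2% of all tested genes were called higher and 12.4% lower. The processome list gave 8 rises and 1 fall in 35 genes, with UTP14A at 0.29 and the helicase gene DHX37 at 0.26. The large subunit list gave 8 rises and 0 falls in 40 genes, with NLE1 at 0.30 after WDR74. Of 16 further RNA polymerase I genes 1 rose, POLR1E (0.28, a subunit specific to that polymerase), and 2 fell, among them POLR2H (-0.17, shared by RNA polymerases I, II and III). The nuclear exosome, which trims ribosomal RNA precursors, had 2 rises and 2 falls in 14 genes, the falls being the ring subunits EXOSC9 (-0.36) and EXOSC8 (-0.30). Among 16 export and cytoplasmic maturation genes 3 rose, LTV1 (0.26) among them, and 2 fell, GNL1 (-0.24) among them. Of 12 further snoRNP genes, mostly assembly factors, 0 rose and 1 fell, RUVBL2 (-0.15), an ATPase of the assembly machinery. Of 12 noncoding snoRNA hosts 3 rose, EPB41L4A-AS1 (0.36) among them, and 0 fell.

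The 5 small subunit genes that rose with the block have these hg19 positions in the authors' table. HEATR1 (ENSG00000119285) spans 236712305 to 236767804 on the minus strand of chromosome 1, RRP12 (ENSG00000052749) 99116115 to 99161127 on the minus strand of chromosome 10, and NOB1 (ENSG00000141101) 69775770 to 69788843 on the minus strand of chromosome 16. UTP20 (ENSG00000120800) spans 101673887 to 101780394 on the plus strand of chromosome 12, and DDX10 (ENSG00000178105) 108535752 to 108811657 on the plus strand of chromosome 11. Chromosome 2 holds 8 of the 40 genes, including POLR1A, POLR1B, WDR12 and NOP58.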

How the data were processed

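Values came from 6 RNA-seq libraries of 1 human cell line, 3 dox and 3 no dox, grouped and numbered by their titles. Per the submitters' processing notes, bcl2fastq, Trimmomatic, TopHat and edgeR were used, without versions or roles, on hg19. How shared reads were counted was not given in these notes. The authors deposited normalised counts, a depth-equalised signal of 13161 genes whose formula the notes and labels do not give. They deposited FPKM values, which equal CPM divided by gene width, and the authors' comparison table holds CPM, a log2 fold change, a likelihood ratio score, p-values and adjusted p-values, per the file headers. All CPM values (100%, tolerance 0.01) were whole multiples of 1 read, so whole reads were recovered.

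Normalised counts were tested as log2(value + 1) by limma-trend, two-sided, for the 13153 genes reaching 10 in 3 or more libraries, with Benjamini-Hochberg adjustment over all of them and calls at an adjusted p under 0.05. On this log2(value + 1) scale the fold changes of low genes are understated. On all 6 libraries, fits without the block had 4 residual degrees of freedom and those with it 2. Fits that left out libraries or replicate numbers had fewer. The replicate numbers come from the titles, and what equal numbers share is not stated there. Deviations of same-numbered libraries correlated at 0.745, 0.726 and 0.768, so the numbers were taken to pair the libraries. The fits were tested on simulated data. Alternatives were other pseudocounts, filters and scalings, FPKM, DESeq2, leaving out libraries or replicate numbers, and edgeR. edgeR's quasi-likelihood test called 67 genes and 3058 with the block on 13003 genes of recovered reads.

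The members and lists were chosen with earlier results of these data known. All members are named. Full values are given for members called with the block among the 12 largest changes and for the largest change of each role. Library values of POLR1A and NPM1 were added after their values were seen. From each other list up to 2 genes called with the block are named. Tests ran in R 4.3.3 with DESeq2 1.42.0, edgeR 4.0.16 and limma 3.58.1. Figures and summaries used matplotlib 3.10.9, pandas 2.3.3, numpy 2.4.6 and Python 3.11.15.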

Additional observations from a re-analysis of the deposited data

How the results depend on the processing

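With the replicate block the count of changed genes of the 40 was 11 under the authors' scaling, TMM, quantile normalisation, FPKM and edgeR, and 12, 4 and 6 without replicates 1, 2 and 3. Without the block the count was 0, and it stayed at 0 there with other pseudocounts, filters and scalings, FPKM, edgeR and DESeq2. Leaving out any 1 library without the block also left it at 0. Over all genes 71 changed in the main fit without the block. That count was 31 with FPKM, 518 with DESeq2, 2965 with the block, 2978 with block and TMM, 2081 with block and FPKM, 2918 with block and quantile normalisation and 3058 with edgeR and the block. It was 3 to 21 when a library was left out, and 3835, 1414 and 1779 with the block and without replicates 1, 2 and 3. Of the 145 further genes 2 changed in the main fit, against 0 with FPKM, 33 with the block or block and TMM and 35 with edgeR and the block. The count was 26 with block and FPKM and 31 with block and quantile normalisation. It was 0 when a library was left out and 38, 12 and 13 with the block and without replicates 1, 2 and 3. Block settings on FPKM and with quantile normalisation were chosen after seeing the data. The median change of the 40 ran from 0.041 to 0.17 when a library was left out.

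Changes near 0 switched sign. GAR1 was 0.021 with FPKM, 0.0016 with TMM with or without the block, 0.00061 with quantile normalisation and 0.0012 with edgeR and the block. With FPKM GNL3 was 0.0077, NOLC1 0.0019 and BYSL 0.0026, and with quantile normalisation NOLC1 was 0.019. With a replicate number left out of the block WDR75 was -0.029 and UBTF -0.0046 (replicate 1), NPM1 -0.0038 and GNL3 0.013 (replicate 3), GAR1 0.010 (replicate 1) and NOLC1 0.028 (replicate 2). With a library left out the changes ran from -0.20 to 0.12 for BYSL, -0.0026 to 0.20 for DKC1, -0.064 to 0.067 for GAR1, -0.097 to 0.073 for GNL3, -0.14 to 0.053 for NOLC1, -0.031 to 0.25 for NOP16, -0.0044 to 0.32 for NOP2, -0.046 to 0.15 for NOP56, -0.13 to 0.15 for NPM1, -0.053 to 0.14 for RRP1, -0.15 to 0.013 for RRP1B, -0.051 to 0.24 for RRP9, -0.089 to 0.19 for TCOF1, -0.021 to 0.036 for UBTF, -0.036 to 0.18 for WDR43 and -0.0064 to 0.15 for WDR75. The causes were not tested. Shallower libraries, such as no dox replicate 3 with 15094498 reads, limit the lowest member to 131 reads.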
